A study of Mus musculus with 16 samples.

Results

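The nuclear pore complex genes were followed through the hippocampal subregions CA1, CA3 and DG of mice trained in active place avoidance (APA) and of untrained mice. Members were taken by symbol: every gene whose symbol is Nup followed by a number, together with Ranbp2, Tpr, Rae1, Aaas, Seh1l, Sec13, Pom121, Ndc1, Gle1, Nupl1, Nupl2 and Ahctf1. This gave 33 of the 24972 genes in the files. APA is a test of spatial memory in which foot shocks mark a place to be avoided while the floor turns. Trained mice received these shocks, whereas untrained mice went through the same sessions without any. Both groups were adult ArcCreERT2::eYFPflx mice on a C57BL/6 background, aged 3 to 4 months, so untrained animals carry the same transgenes. The regulatory region of Arc drives the tamoxifen-inducible Cre in this line, and the methods state that each group held both sexes. Tissue was taken from the dorsal hippocampus about an hour after a memory retention test, and the pieces of a subregion were pooled within each animal. RNA was sequenced in bulk from 3 trained and 3 untrained animals, which gave 9 trained and 7 untrained libraries: 3 trained libraries in each subregion, 3 untrained in CA1 and 2 untrained in each of CA3 and DG.

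The nuclear pore complex is the channel through the nuclear envelope by which proteins and RNA pass between nucleus and cytoplasm. Its scaffold is built of the outer rings, made of the Y complex, and of the inner ring, and membrane proteins anchor it where the inner and outer nuclear membranes join. Proteins rich in phenylalanine-glycine repeats fill the central channel and bind transport receptors, filaments on the cytoplasmic side complete mRNA export, and the nuclear basket of Nup153, Nup50 and Tpr faces the chromatin. Scaffold proteins of the pore are known to be very long lived in neurons. The values below are transcript levels and not pore numbers, and in bulk tissue fewer cells of a type and less RNA per cell cannot be told apart.

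Lower levels in trained animals were called for 3 members over all subregions, Nup153, Nup205 and Aaas, where 10.3% of all genes were called and 4.06% as lower. Nup153 was also called in CA1 (5.23% of all genes, 1.7% as lower) and Tpr in DG (3.4%, 1.66% as lower). The members' promoters are shown because the training comparison turns on these 4 genes. Each line holds the 250 bases before the RefSeq transcription start on GRCm38.p6, read 5′ to 3′ on the strand of the gene. Capitals mark the motifs searched on both strands: CCAAT (the CCAAT box), GGGCGG (the GC box), CCGGAA (the core bound by ETS factors), TGACGTCA (the cAMP response element) and TGACG, its shorter form, which the full element contains. The RefSeq starts lie downstream of the GENCODE gene starts for 3 of the genes, so that 195 of the 250 bases printed for Nup205, 91 for Nup153 and 12 for Aaas lie within the gene as GENCODE annotates it. For Tpr both starts are the same. The Nup153 promoter (chr13:46727850-46728099, minus strand) had 2 TGACG matches and 2 GC boxes, of which the GC box 35 bases before the RefSeq start is within the GENCODE gene. The Nup205 promoter (chr6:35177366-35177615, plus strand) had 1 GC box, also within the GENCODE gene, the Aaas promoter (chr15:102350760-102351009, minus strand) 1 ETS core, and the Tpr promoter (chr1:150392588-150392837, plus strand) 1 CCAAT box and 1 TGACG match.
Nup153: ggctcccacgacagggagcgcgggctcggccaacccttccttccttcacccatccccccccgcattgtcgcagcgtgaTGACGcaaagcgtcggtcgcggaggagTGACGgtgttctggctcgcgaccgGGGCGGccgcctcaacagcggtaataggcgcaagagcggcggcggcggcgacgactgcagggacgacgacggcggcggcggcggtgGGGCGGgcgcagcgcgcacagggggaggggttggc
Nup205: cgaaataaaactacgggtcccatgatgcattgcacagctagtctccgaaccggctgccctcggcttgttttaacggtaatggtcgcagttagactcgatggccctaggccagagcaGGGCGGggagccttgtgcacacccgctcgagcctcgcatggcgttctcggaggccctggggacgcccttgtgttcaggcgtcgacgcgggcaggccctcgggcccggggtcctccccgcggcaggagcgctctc
Aaas: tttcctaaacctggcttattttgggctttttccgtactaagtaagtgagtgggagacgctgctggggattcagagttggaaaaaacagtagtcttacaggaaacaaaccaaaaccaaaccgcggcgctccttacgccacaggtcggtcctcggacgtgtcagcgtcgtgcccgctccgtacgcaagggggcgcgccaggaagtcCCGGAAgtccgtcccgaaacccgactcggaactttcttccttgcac
Tpr: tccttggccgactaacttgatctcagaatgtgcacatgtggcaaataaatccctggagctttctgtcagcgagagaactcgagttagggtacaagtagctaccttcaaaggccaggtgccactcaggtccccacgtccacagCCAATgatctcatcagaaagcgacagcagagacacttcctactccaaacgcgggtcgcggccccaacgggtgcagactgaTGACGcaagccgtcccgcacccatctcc

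Promoters were used for 28 of the 33 members. Those of chromosome 18 were left out, which removed Seh1l and also every gene of that chromosome from the background. For Nup35, Nup85, Nup43 and Nup210l no promoter was matched. The members' promoters were rich in G and C, with a median GC content of 62.6% against 52.0% over all 27025 promoters, and held a median of 19 CpG pairs against 6. GC boxes were present in 17 of the 28 (60.7%) against 32.9% of all promoters, TGACG in 13 (46.4%) against 17.9%, ETS cores in 7 (25.0%) against 12.2%, and CCAAT boxes in 11 (39.3%) against 34.5%. The full cAMP response element was present in 2 members (7.14%), Nup133 and Nup214, against 1.62% of all promoters. All of these motifs but the CCAAT box contain a CpG pair. The 27025 promoters were not matched to the members in CpG content or in expression. Whether the higher shares go beyond what CpG-rich promoters hold was not tested. A match is a description of these letters and not a binding site.

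Each value is an estimated count after normalization by the authors, and values summed to between 7606553 and 7984144 per library. The number of genes with a value of 0 split the libraries: 9 had 3124 to 5944 such genes and 7 had 7567 to 9758. The latter were all 3 trained CA1 libraries, trained CA3 libraries 1 and 2, and both untrained DG libraries. Xist, the female-specific noncoding RNA, was between 7601 and 19590 in trained libraries and between 25.49 and 52.41 in 6 of the 7 untrained libraries. The remaining one, CA3 untrained 1, had an Xist value of 10590, unlike the CA1 and DG libraries of the animal with the same number, and the Y-linked Ddx3y was 201 there against 448 to 553 in the other untrained libraries. Ddx3y was 255 in DG trained 3 and at most 101 in the other trained libraries. All 9 trained libraries thus had high Xist, and no untrained animal had high Xist in each of its libraries. Both go against the mix of sexes stated for each group, and in most libraries the sex-linked transcripts cannot be told apart from training. Markers separated the labelled subregions only in part. The summed level of 5 CA1 pyramidal markers was 1599 to 5210 in CA1, 922 to 1613 in CA3 and 1343 to 2106 in DG. The sum of 4 dentate granule cell markers (Prox1, Dsp, C1ql2 and Lct) was 7104 to 9150 in DG, 6800 to 8290 in CA1 and 5998 to 10297 in CA3, and 0 of the 4 were called between DG and either other subregion (log2 differences from -0.16 to 0.04, limma adjusted p from 0.369 to 0.989). Other markers did differ, with 4 of the 5 CA1 pyramidal markers called higher in CA1 than in CA3 (Mpped1 by 1.25, SE 0.175, limma adjusted p = 0.00796) and 0 of 5 called between CA1 and DG. The CA3 marker Grik4 was called lower in CA1 than in CA3 (-0.39, adjusted p = 0.0216) and than in DG (-0.34, adjusted p = 0.0258), but not between CA3 and DG (0.05, adjusted p = 0.937). The other CA3 markers, Coch and Iyd, were called in none of these contrasts. Coch was 0.17 in CA1 against CA3 and 0.09 in CA1 against DG, and Iyd was -0.63 and -0.57. Subregion names below are those of the labels.

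Transcripts of 31 members passed the filter on low values (at least 10 in as many libraries as the smallest group) in every comparison. Nup210l, a paralog of the membrane protein Nup210, lay between 0 and 7.2, and Nup62cl, a paralog of the channel protein Nup62, between 0 and 2.2, and neither was tested. Levels between genes were compared per kilobase of transcript. On this scale Ranbp2, the SUMO ligase of the cytoplasmic filaments, had the highest mean level at 268 per kilobase. Tpr, the coiled-coil filament of the basket, followed with 195, Sec13 and Nupl1 with 165 each, Nup93 with 157 and Nup88 with 149. Nup153 was the tenth member in this order, with a level of 105. At the low end, the Y complex members Nup37 and Nup43 had levels of 18.1 and 12.2 per kilobase, and Ndc1, a membrane anchor, 19.8. The order was nearly the same in the 3 subregions (Spearman's rho from 0.993 to 0.995 over 33 members, a description across genes in the same libraries). Sec13, whose protein also coats vesicles leaving the endoplasmic reticulum, and the other high members overlapped in range, so that the third to sixth places are not separated by the spread between libraries. Ranges also overlapped for Ranbp2 (241 to 293) and Tpr (181 to 244), and for Tpr and Nupl1 (155 to 195). Nup88 (134 to 167) overlapped the next member, Pom121 (99.1 to 138). Nupl1 shares 48.8% of its exon bases with a readthrough gene, Gm49336, on the same strand, so its level is uncertain, and Pom121 shares 11.9% with Nsun5 on the opposite strand, where the strand setting of the counting was not stated.

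**Figure D1:**
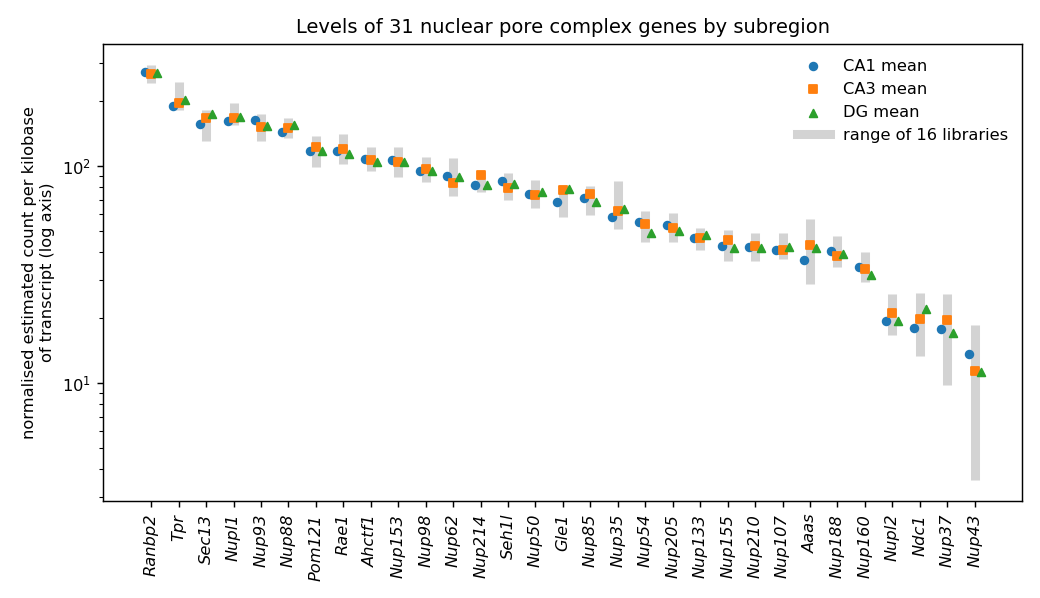
Mean normalised estimated count per kilobase of transcript (log axis) of the 31 tested members in CA1, CA3 and DG, with the range over 16 libraries as a grey bar. Ranbp2 (268) and Tpr (195) are at the top and Nup43 (12.2) at the bottom, and the 3 subregion means of each gene lie close together.

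Training was compared first over all subregions, in a limma fit with the subregion as a term, where 3 of 31 members were called at an adjusted p under 0.05, all lower in trained libraries. Of all 14670 genes tested, 10.3% were called, and 4.06% were called as lower, so the number of members called (9.68%) was near the background. Differences below 0 were found in 21 of the 31 members, with a median of -0.085 on the log2 scale, against 52.2% of all genes and a median of -0.009. An unadjusted p under 0.05 was reached by 7 members (22.6%), Tpr, Ahctf1, Nup98 and Ranbp2 besides those called, against 25.5% of all genes. The 95% interval of the difference lay within a 1.5-fold change in 30 of the 31 members. Libraries of one animal entered this fit as separate samples, so its p-values measure the spread between libraries.

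**Figure D2:**
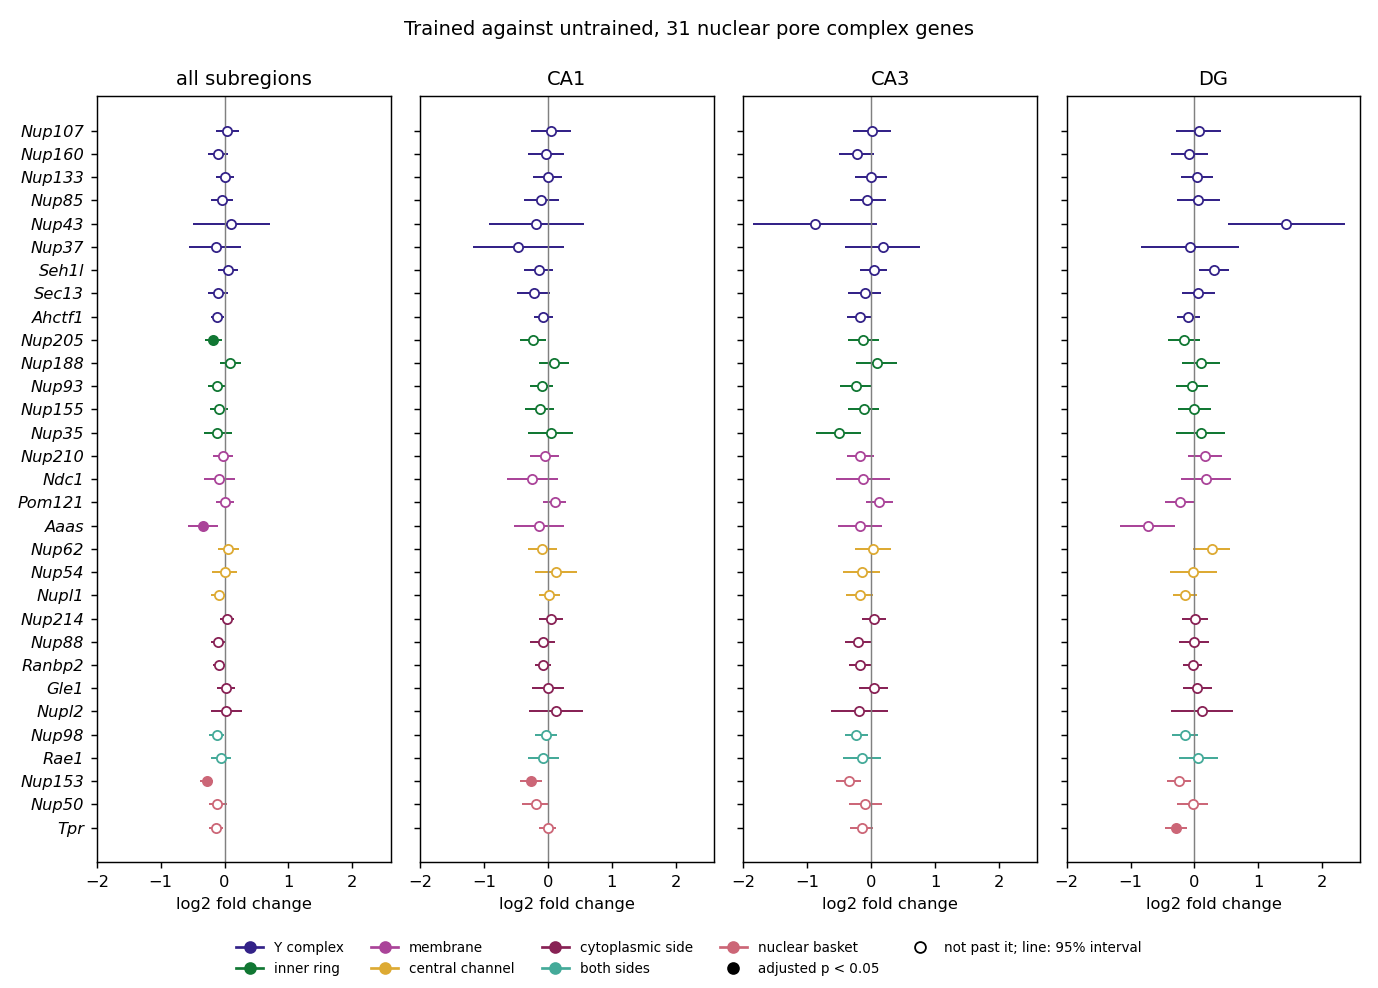
Log2 fold change (trained against untrained) of the 31 tested members, coloured by place in the pore, over all subregions and within CA1, CA3 and DG, with 95% intervals as lines and filled points for adjusted p under 0.05. Nup153, Nup205 and Aaas are filled over all subregions, Nup153 in CA1 and Tpr in DG, and Nup43 has the widest intervals.

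Nup153 showed the clearest difference with training. It encodes a basket protein that recruits transport receptors and binds chromatin, and it lies on chromosome 13 of GRCm38 from 46679905 to 46727940. In CA1 its normalised estimated counts were 690.5, 719.4 and 729.6 in untrained and 608.4, 630.1 and 545.9 in trained libraries. In CA3 they were 747.6 and 713 in untrained and 542.9, 591.4 and 582.5 in trained libraries, and in DG 699.1 and 701.4 against 606.9, 587.6 and 581.3. Every trained library was below every untrained library, whatever the subregion. Nup153 was the only member with no overlap over all 16 libraries, a pattern that 0.436% of all genes tested showed in this direction. Trained libraries averaged 586.3 ± 28.3 (SD, n = 9) and untrained libraries 714.4 ± 19.7 (SD, n = 7), a ratio of 0.82 and a log2 fold change of -0.28 (SE 0.043, limma adjusted p = 0.000357).

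Within subregions the size of the Nup153 difference was alike. In CA1 the log2 fold change was -0.26 (SE 0.075, limma adjusted p = 0.0469), in CA3 -0.35 (SE 0.081, adjusted p = 0.0735) and in DG -0.24 (SE 0.081, adjusted p = 0.107). Only the CA1 value passed the threshold, and it did not when any of the 6 CA1 libraries was left out (adjusted p from 0.0683 to 0.148). All trained CA1 libraries have many genes at 0 and no untrained CA1 library does. In CA1 the split by genes at 0 thus cannot be told apart from training. The differences between subregions in this effect were 0.09 (SE 0.105) for CA1 against CA3, -0.02 (SE 0.105) for CA1 against DG and -0.11 (SE 0.111) for CA3 against DG, with limma adjusted p of 0.911, 0.941 and 0.759. The combined call held in each fit that left out an animal (adjusted p from 0.00047 to 0.00609). It was lost when a score of sex-linked transcripts entered the fit (log2 fold change -0.4, SE 0.103, limma adjusted p = 0.122). With a term for the split by genes at 0 it held (-0.28, adjusted p = 0.000393). In the 9 libraries with few genes at 0 alone the log2 fold change was -0.32. Among these only CA3 holds both training groups, with 1 trained library against 2 untrained. That fit therefore cannot test the combined difference. CA3 untrained 1, the untrained library with high Xist, had the highest Nup153 value of all, and without it the log2 fold change was -0.27 (adjusted p = 0.00166).

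**Figure D3:**
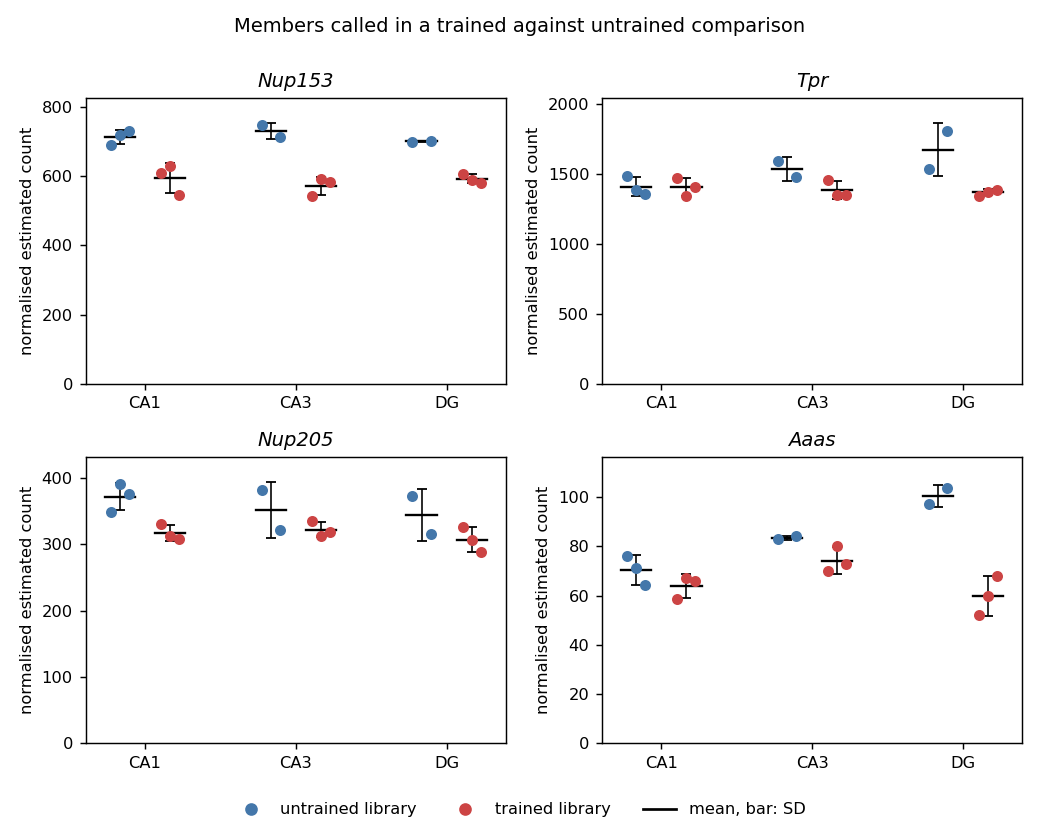
Normalised estimated counts of Nup153, Tpr, Nup205 and Aaas in each untrained (blue) and trained (red) library by subregion, with the mean as a line and the SD as a bar. For Nup153 the trained points, 542.9 to 630.1, lie below the untrained points, 690.5 to 747.6, in every subregion, while Tpr separates in CA3 and DG but not in CA1.

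Of the other basket members, Tpr was called in DG and Nup50 in no comparison. Tpr, which helps retain unspliced RNA in the nucleus, lies on chromosome 1 from 150392838 to 150449935. In DG its values were 1540.2 and 1812.2 in untrained and 1345.9, 1374.8 and 1389 in trained libraries, a log2 fold change of -0.29 (SE 0.076, limma adjusted p = 0.0497). The groups did not overlap in DG, where the 2 untrained libraries lie far apart. In CA3 the values were 1596.8 and 1478.1 against 1458.1, 1352 and 1349, and the groups were again apart by little (-0.15, SE 0.077, adjusted p = 0.377). In CA1 they were 1486.1, 1389.4 and 1355.8 against 1473.5, 1345.1 and 1407.7, which overlap throughout (0.00, SE 0.06). Over all subregions the difference was -0.13 (SE 0.048, limma adjusted p = 0.0717). It was called there with a term for the split by genes at 0 (-0.17, SE 0.043, adjusted p = 0.0129), which lost Nup205 (adjusted p = 0.0531), and under upper-quartile rescaling (-0.14, adjusted p = 0.0403). The training effect of Tpr was 0.28 higher in CA1 than in DG (SE 0.1, adjusted p = 0.119), so a difference between subregions was not shown. Both untrained DG libraries are among those with many genes at 0 and the 3 trained DG libraries are not, and in DG this split cannot be told apart from training. The Tpr call in DG was lost when any library other than untrained 1 was left out (adjusted p from 0.14 to 0.186) and after the trend on GC content and length was removed (-0.26, adjusted p = 0.0727), where Aaas was called in its place (-0.78, adjusted p = 0.0364). Its size rested on the untrained libraries, since the log2 fold change was -0.17 without DG untrained 3 and -0.4 without DG untrained 1. Nup50, which assists the release of imported cargo, had a log2 fold change of -0.11 over all subregions (SE 0.06, limma adjusted p = 0.267).

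In the inner ring, 1 of 5 members was called over all subregions, against 10.3% of all genes (4.06% as lower). Nup205, a large scaffold protein of this ring, lies on chromosome 6 from 35177421 to 35247596. Its values were 349.3, 390.2 and 375.4 in untrained CA1 against 330.1, 312.4 and 307.2 in trained CA1. In CA3 they were 381.6 and 322.2 against 334.5, 313 and 319.1, and in DG 372 and 315.9 against 325.9, 306 and 288.1. The groups were apart in CA1 and overlapped in CA3 and DG. Trained libraries averaged 315.1 ± 14.2 (SD, n = 9) and untrained libraries 358.1 ± 29.5 (SD, n = 7), with a log2 fold change of -0.18 (SE 0.055, limma adjusted p = 0.0433). Without CA3 untrained 1 it was -0.16 (SE 0.059, limma adjusted p = 0.115), with the sex-linked score in the fit -0.33 (SE 0.131, adjusted p = 0.297), and the call was lost under 13 of the 20 other settings tried. Its paralog Nup188 had a difference above 0 (0.09, SE 0.071, limma adjusted p = 0.433). Nup93, which links the inner ring to the channel, had -0.12, Nup155 -0.09 and Nup35, which touches the pore membrane, -0.11 (limma adjusted p from 0.207 to 0.549). In CA3 alone the Nup35 difference was -0.5 (SE 0.151, adjusted p = 0.147), with values of 132.6 and 103.6 against 81.2, 85.1 and 80.3.

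Among the membrane members, 1 of the 4 tested was called over all subregions, against the same 10.3% and 4.06% of all genes. Aaas, the protein ALADIN that is mutated in triple A syndrome and is held at the pore by Ndc1, lies on chromosome 15 from 102338252 to 102350771. In DG its values were 97.4 and 103.7 in untrained and 52, 59.9 and 68.2 in trained libraries. In CA1 they were 76.3, 71.2 and 64.2 against 58.5, 67.3 and 66.1, and in CA3 83 and 84.2 against 69.9, 80.2 and 72.7. The groups were far apart in DG, narrowly apart in CA3 and overlapping in CA1. Over all subregions the log2 fold change was -0.33 (SE 0.107, limma adjusted p = 0.0481), and in DG it was -0.73 (SE 0.197, adjusted p = 0.0514). The interval of the DG difference ran from -1.15 to -0.32. A difference between the DG effect and that in CA1 (0.6, SE 0.233, limma adjusted p = 0.17) or in CA3 (0.56, SE 0.245, adjusted p = 0.382) was not shown. In DG, where the Aaas difference was largest, the split by genes at 0 cannot be told apart from training. The Aaas call over all subregions was lost under 12 of the 20 other settings. Without CA3 untrained 1 the log2 fold change was -0.35 (SE 0.115, limma adjusted p = 0.0649), and with the sex-linked score in the fit it was -0.09 (SE 0.255, adjusted p = 0.943). Ndc1, Pom121 and Nup210 had combined differences between -0.08 and 0.01.

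None of the 9 Y complex members was called in any comparison of training. With 10.3% of all genes called over all subregions, 5.23% in CA1, 0.852% in CA3 and 3.4% in DG, a count of 0 among so few members does not set them apart. Their median difference over all subregions was -0.04, from -0.14 in Nup37 to 0.1 in Nup43. Ahctf1, also known as ELYS, which brings the Y complex to chromatin when nuclei reform, was -0.11 (SE 0.042, limma adjusted p = 0.0855). Its trained libraries lay below the untrained ones within each of the 3 subregions. Nup153 and Ahctf1 were the only members for which this held, and 1.41% of all genes showed it in this direction. The Ahctf1 values were 922.6, 922.4 and 981.4 against 884, 887 and 919.8 in CA1. In CA3 they were 1047.5 and 913 against 888.5, 866.8 and 826.4, and in DG 929.4 and 907.3 against 879.5, 810 and 890.1. The gaps were narrow, and the ranges of different subregions overlapped. Ahctf1, and Nup43, Seh1l, Nup35, Gle1 and Nup214 elsewhere in the text, were singled out after their values had been seen.

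Nup43 and Seh1l, both WD-repeat members of the Y complex, were higher without overlap in trained DG, as was Nup62. These are 3 of the 31 members tested, against 17.4% of all genes, so the count does not set the members apart. For Seh1l the DG values were 265 and 248.1 in untrained and 301.7, 324.7 and 326.8 in trained libraries (log2 fold change 0.31, SE 0.108, limma adjusted p = 0.125). In CA1 the Seh1l values were 327.9, 321 and 304.1 against 322.3, 262.5 and 282.7, which overlap. The Seh1l effect in CA1 minus that in DG was -0.45 (SE 0.135, limma adjusted p = 0.0725). Nup43 had the lowest values of the tested members. In DG they were 7.9 and 4.6 in untrained and 17.1, 24 and 19.2 in trained libraries (1.44, SE 0.427, limma adjusted p = 0.0717). In CA3 the order was the opposite, with 22.3 and 18.3 in untrained and 6.6, 8.3 and 17.8 in trained libraries (-0.88, SE 0.431, adjusted p = 0.349). The Nup43 effect in CA3 minus that in DG was -2.32 (SE 0.552, adjusted p = 0.0887). The 4 libraries of CA3 and DG with Nup43 values under 10 were exactly those of these subregions with many genes at 0, and the trained CA3 library with few genes at 0 had a value of 17.8. In CA1, where all trained libraries have many genes at 0, the values were 17.9, 21.8 and 16 against 20.5, 13 and 15.5. The part of this split in the Nup43 differences was not tested.

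**Figure D4:**
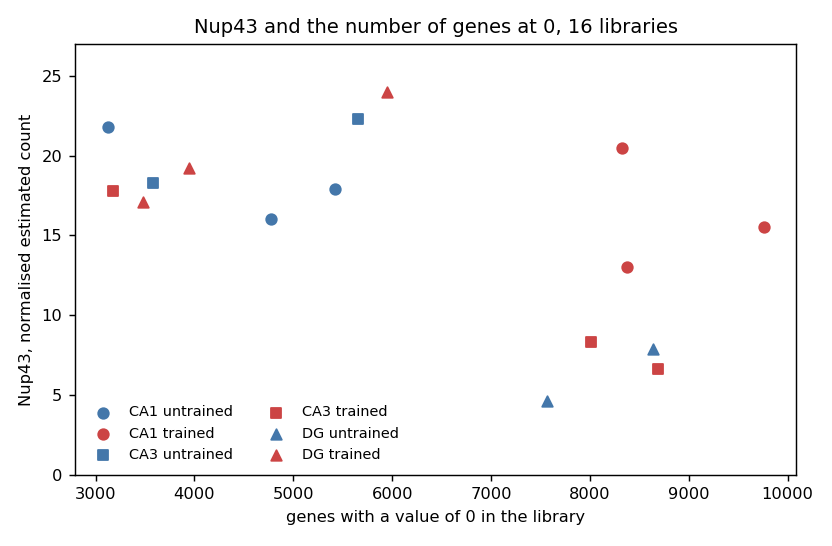
Normalised estimated count of Nup43 in each of the 16 libraries against the number of genes with a value of 0 in that library, with subregion as shape and training as colour. The 4 libraries at 4.6 to 8.3 all have at least 7567 genes at 0, while the 9 libraries with few genes at 0 lie between 16 and 24.

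Central channel, cytoplasmic and shuttling members were called in no comparison of training. Of all genes, 10.3% were called over all subregions, and 0.852% (CA3), 3.4% (DG) and 5.23% (CA1) within a single subregion. At these shares a count of 0 among so few members does not set them apart. Nup62 (0.06), Nup54 (0.00) and Nupl1 (-0.09), which together form the channel subcomplex, had small differences over all subregions. On the cytoplasmic side, Ranbp2 (-0.09, SE 0.038, limma adjusted p = 0.128) and Nup88 (-0.1, SE 0.051, adjusted p = 0.238) were below 0, while Nup214, their partner, Gle1, the activator of the mRNA export helicase, and Nupl2 were between 0.03 and 0.04. Ranbp2 had the least spread between libraries of any member, with an SD within groups of 0.059 on the log2 scale, against 0.119 for the median member and 0.164 for the median gene. Nup98, which also binds active genes in the nucleoplasm, was -0.12 (SE 0.046, limma adjusted p = 0.0864), and its mRNA export partner Rae1 was -0.05.

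Within single subregions few members passed the test. In CA1 1 of 31 was called, against 5.23% of all genes (1.7% as lower), 2 (6.45%) had an unadjusted p under 0.05, against 18.9%, and the members' median was -0.07 against 0 for all genes. In CA3 0 of 31 were called by limma, against 0.852% of all genes, 6 (19.4%) had an unadjusted p under 0.05, against 15.8%, and the median was -0.14 against -0.006. In DG 1 of 31 was called, against 3.4% of all genes (1.66% as lower), 6 (19.4%) had an unadjusted p under 0.05, against 19.5%, and both medians were 0.001. Trained libraries lay below untrained ones without overlap for 14 members in CA3 (16.7% of all genes), 4 in CA1 (11.1%) and 6 in DG (18.2%). They lay above them for 1 member in CA3 (17.2%), 1 in CA1 (12.9%) and 3 in DG (17.4%). The 14 in CA3 included members from each place in the pore, among them Nup98 (-0.23, SE 0.078, adjusted p = 0.198), Nup93 (-0.23, SE 0.105, adjusted p = 0.311), Nup88 (-0.2, SE 0.086, adjusted p = 0.29) and Ranbp2 (-0.17, SE 0.073, adjusted p = 0.29). The untrained CA3 group has 2 libraries, 1 of which is the library with high Xist. Summed cell type markers were also set against each other, and 4 of the 10 lists in each subregion did not overlap between trained and untrained libraries. Single genes were without overlap in either direction at the shares given above. The count of lists alone thus does not show a difference in cell types. In DG, where Tpr was called, dentate granule markers were 8696 to 9150 in untrained and 7104 to 7570 in trained libraries (4 of 4 below 0, 1 called), and endothelial markers 521 to 613 against 313 to 351 (4 of 4 below 0, 1 called). The interneuron sum was 3186 to 3457 against 3539 to 3713 (1 of 5 genes below 0, 0 called), and the oligodendrocyte sum 14851 to 19172 against 13156 to 14135 (4 of 5 below 0, 0 called). In CA3, choroid plexus markers were 771 to 1073 in untrained and 234 to 312 in trained libraries (4 of 4 below 0, 1 called). The leptomeningeal sum was 372 to 445 against 285 to 328 (5 of 5 below 0, 0 called) and the astrocyte sum 9862 to 10891 against 8688 to 9640 (4 of 5 below 0, 0 called). The CA3 pyramidal sum, most of which is Grik4, was 355 to 489 against 530 to 641, although 2 of its 3 genes were below 0 and 0 were called. In CA1, the CA1 pyramidal markers were 3222 to 5210 in untrained and 1599 to 1986 in trained libraries (5 of 5 below 0, 2 called). The astrocyte sum was 10282 to 10705 against 9548 to 9908 (4 of 5 below 0, 1 called lower) and the endothelial sum 579 to 603 against 607 to 677 (1 of 4 below 0, 0 called). The CA3 pyramidal sum, again mostly Grik4, was 324 to 347 against 423 to 461, with 1 of its 3 genes called higher and 1 called lower. The part of these markers in the members' differences was not tested.

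Whether the training difference depended on the subregion was asked with interaction terms. For CA1 against CA3, 0 of 31 members were called by limma, against 0.0273% of all genes, and 1 had an unadjusted p under 0.05 (3.23%, against 6.71%). For CA1 against DG, 0 were called, against 2.75%, and 6 had an unadjusted p under 0.05 (19.4%, against 17.9%). For CA3 against DG, 0 were called, against 0.13%, and 5 had an unadjusted p under 0.05 (16.1%, against 11.7%). Differences below 0 were held by 12 of 31 members for CA1 against CA3 (median 0.034, against -0.008 for all genes), by 20 for CA1 against DG (-0.05, against -0.008) and by 25 for CA3 against DG (-0.115, against -0.007). With 0 members called in each, a training effect that differs between subregions was not shown for the members. The median half-width of the 95% intervals was 0.3, 0.3 and 0.32 on the log2 scale.

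The subregions themselves were compared with training groups weighted equally. In CA1 against CA3, 0 of 31 members were called by limma, against 0.988% of all genes, and 2 had an unadjusted p under 0.05 (6.45%, against 10.2%). In CA1 against DG, 0 were called, against 4.05%, and 3 had an unadjusted p under 0.05 (9.68%, against 19.6%). In CA3 against DG, 0 were called, against 0.00682%, and 1 had an unadjusted p under 0.05 (3.23%, against 6.86%). The 95% interval lay within a 1.5-fold change in 29, 30 and 29 of the 31 members. Gle1 had the lowest level in CA1, with a difference of -0.18 from CA3 (SE 0.073, limma adjusted p = 0.341) and of -0.19 from DG (SE 0.073, adjusted p = 0.143). Nup214, the docking site on the cytoplasmic side, was 0.13 higher in CA3 than in DG (SE 0.061, adjusted p = 0.694) and 0.14 higher in CA3 than in CA1, the difference CA1 against CA3 being -0.14 (SE 0.058, adjusted p = 0.364). Nup43 had the largest differences and the widest intervals, with 0.53 in CA1 against DG (SE 0.262, limma adjusted p = 0.263).

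**Figure D5:**
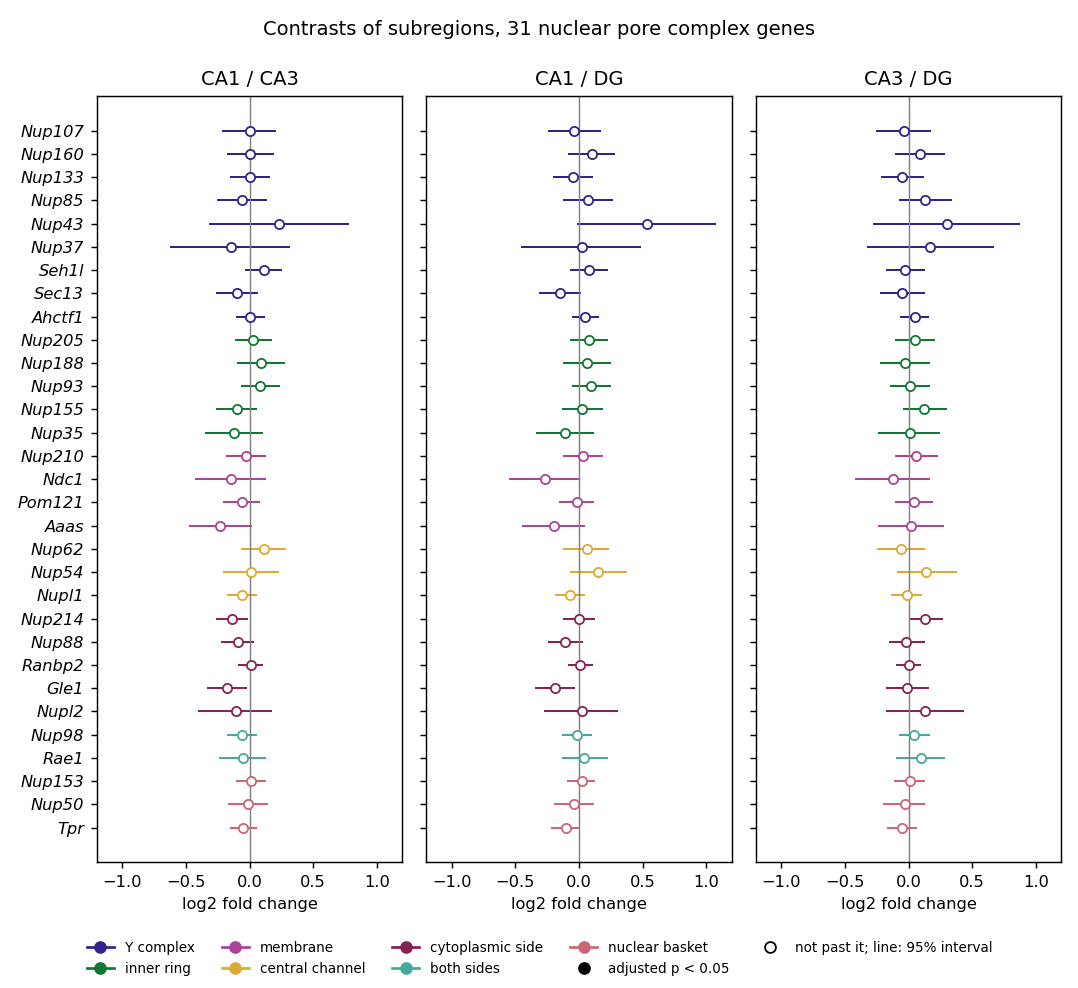
Log2 fold change between subregions of the 31 tested members, with 95% intervals as lines and colours for the place in the pore. All points are open, since no member had an adjusted p under 0.05, and 29 to 30 intervals lie within a 1.5-fold change.

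Other genes of nuclear transport were called in both directions over all subregions. Of 24 tested transport receptors, 1 rose, the import receptor Tnpo2 (0.17, SE 0.04, limma adjusted p = 0.0098), and 1 fell, the exportin Xpo7 (-0.13, SE 0.041, adjusted p = 0.0437), with a list median of -0.004. In the Ran system, whose GTP gradient gives transport its direction, 1 of 6 genes rose, Rangap1, the GTPase activator that Ranbp2 holds at the pore (0.23, SE 0.049, limma adjusted p = 0.00453). Rangap1 was also called in CA1 (0.25, SE 0.068, adjusted p = 0.0361), and Ran itself rose in DG (0.37, SE 0.075, adjusted p = 0.0163). Of 20 mRNA export genes, 3 fell and 0 rose, and 15 were below 0 with a median of -0.065. Those called were the export receptor Nxf1 (-0.2, SE 0.048, limma adjusted p = 0.00929), the THO subunit Thoc2 (-0.17, SE 0.05, adjusted p = 0.0343) and the cap-binding protein Ncbp1 (-0.16, SE 0.048, adjusted p = 0.0382). Of 14 genes of the nuclear lamina and envelope, Lmna rose (0.31, SE 0.088, limma adjusted p = 0.0271), and Syne1 (-0.25, SE 0.056, adjusted p = 0.00836) and Sun1 (-0.15, SE 0.045, adjusted p = 0.0351), a pair that joins the nucleus to the cytoskeleton, fell. Syne1 was called in DG too (-0.34, SE 0.049, adjusted p = 0.00165). In CA3 no gene of the 4 lists was called by limma. Over all genes, 10.3% were called in the combined comparison (4.06% as lower), 5.23% in CA1, 3.4% in DG and 0.852% in CA3, and the count of 0 in CA3 is near that last share. With the sex-linked score in the fit, limma called 0 of 14670 genes (1702 at an unadjusted p under 0.05), so none of the 9 combined calls in these lists was kept. Their log2 fold changes kept their sign in that fit, from -0.46 in Syne1 to 0.45 in Rangap1, with the smallest value in Ncbp1 (-0.05, adjusted p = 0.929). Without CA3 untrained 1, Tnpo2, Rangap1, Nxf1 and Syne1 were called (adjusted p from 0.019 to 0.0353) and Xpo7, Thoc2, Ncbp1, Lmna and Sun1 were not (0.0642 to 0.118).

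Between libraries of a group, the mean correlation of the members' residuals was 0.024 over 465 pairs, 0.076 for pairs in the same place of the pore and 0.015 for pairs in different places, against 0.001 for all pairs of genes tested, over the same 16 libraries. Single pairs went both ways, since the correlation with Nup153 ran from -0.61 in Nup133 to 0.73 in Gle1, and a mean near 0 does not show that members vary independently.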

How the data were processed

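Before they deposited the files, the authors aligned reads with STAR, estimated counts per gene with Salmon and normalized them. The genome build is GRCm38 in the processing notes and is written as MM10 (GRCm39) in the methods, and GRCm38 was used here. The deposited signal is thus a normalized estimated count, not whole, and read depth is unknown. Median-of-ratios factors of the files were 1.0053 to 1.0054. DESeq2, which the authors used, needs counts and was not run here.

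Values were compared on the scale log2(value + 2) with limma 3.58.1 (R 4.3.3, trended and robust variance, Benjamini-Hochberg over all genes tested). This scale understates fold changes of low genes. Genes needed a value of 10 in at least 3 (CA1) or 2 libraries (CA3, DG, combined). The combined fit had a subregion term, and subregion contrasts and interactions came from a fit of 6 groups. Libraries of the same animal did not deviate together (r from -0.108 to 0.092), so no block was used. Lengths, positions and overlaps came from GENCODE vM21 (GRCm38), promoters from RefSeq.

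Members and lists were chosen with earlier results of these data known. By rule, every library is given for members called in a training comparison or interaction and for Nup153, and pathway lists by their genes of smallest p. Alternatives were other scalings, filters and pseudocount, plain variance, a single fit, replicate blocks, a sex-linked covariate, a term for the split by genes at 0, a GC and length correction, and animals left out. Leaving out DG trained 3 alone, and using the 9 libraries with few genes at 0 alone, and both alternatives given for the pathway lists, were added after seeing the data.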

Additional observations from a re-analysis of the deposited data

How the results depend on the processing

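Nup153 kept its direction under all 20 alternatives of the combined comparison (log2 fold change from -0.4 to -0.23) and its call in 18. The number of members called over all subregions (3) was 1 with no low-value filter, 1 under the replicate block (number) and 4 under upper-quartile rescaling. It was 0 with the sex-linked covariate, where 0 of all 14670 genes were called. The libraries with few genes at 0 alone hold both training groups only in CA3, with 1 trained library, so their count is not given. With an animal or a library left out it was 1 to 2. In CA1 the 1 call became 0 with no robust estimation, under the replicate block, after the trend on GC content and length was removed, and in each fit without an animal (0 to 0). In CA3 the 0 calls became 1, Nup153, with all libraries in one fit and under the replicate block (adjusted p = 0.00437 for the block). In DG the 1 call became 3 with all libraries in one fit, 2 where every library had to reach 10, 0 with no filter, no robust estimation or a pseudocount of 0.5, and 0 to 2 with an animal left out. CA1 against DG gave 2 calls, Ranbp2 and Tpr, after the GC and length trend was removed, its interaction 2 (Nup43 and Seh1l) with no filter, and the CA3 against DG interaction 0 to 1 without an animal (Nup43 without trained replicate 3). The cause of these changes was not tested. No result reversed. Same-numbered trained and untrained animals share only a number (correlations from -0.18 to 0.119 over 7 pairs). Intervals in CA3 and DG rest on 2 untrained libraries.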
